A study of Mus musculus with 4 samples.

Results

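The cells described here are chondrocytes of the mouse spine that carried RNA of genes of hypertrophic cartilage. They were chosen from measured counts, as cells with at least 1 unique molecular identifier (UMI, a tag that marks 1 captured RNA molecule) of Sox9, at least 3 of Acan and at least 3 summed over Ihh, Panx3, Prkg2 and Col10a1. They numbered 317, out of 1286 cells that met the Sox9 and Acan limits and 1757 cells that passed the cell filters (over 750 UMIs and 500 genes per cell, and under 7% of counts from mitochondrial genes). The working name of these cells, hypertrophic endplate chondrocytes, was borne out only in part. Of the 317 cells, 98 had been let in by Col10a1 alone and otherwise resembled the other chondrocytes, and of the remaining 219, which carried Ihh, Panx3 or Prkg2 and hypertrophy genes such as Runx2, 177 had no Col10a1. Runx2 was not particular to these cells, since endplate chondrocytes below the marker limit also carried it.

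The data were droplet-based single-cell transcriptomes (10x 3′ chemistry) of tdTom+ cells from the T11 to L2 vertebrae of control and mutant mice. Control mice were Prss56Cre/+ with R26tdTom/tdTom and Nf1+/+, and mutant mice were Prss56Cre/Cre with R26tdTom/tdTom and Nf1fl/fl, so that Cre copy number and Nf1 genotype cannot be told apart. All mice carried both tdTom reporter alleles, and Cre expressed from Prss56 marks boundary cap cells and their descendants, so that recombination is limited to that lineage. Cells carrying CD45, CD31 or CD11b and dead cells had been removed in the sort. There was 1 library for each label at 3 months and at 12–16 months of age, and the number of mice pooled in each is not given in the sources used here. No difference between labels or ages therefore has a replicate check, no test was made, and every interval below is a 95% interval that covers counting error only.

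During endochondral ossification, chondrocytes stop dividing, enlarge and become hypertrophic. They then make type X collagen (Col10a1) in place of type II collagen, mineralize their matrix and are replaced by bone. Indian hedgehog (Ihh), released by prehypertrophic cells, signals through Ptch1, Smo and the Gli factors and raises parathyroid hormone-related protein (Pthlh), which acts on its receptor Pth1r to hold back hypertrophy. The vertebral endplate is the cartilage layer between disc and bone, and its deep part goes through these steps in the growing spine.

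The 4 marker genes lie apart in the mouse genome (GRCm38). Col10a1, encoding type X collagen, spans chr10:34389981-34397085 on the plus strand. Ihh, the hedgehog ligand, spans chr1:74945315-74951672 on the minus strand. Panx3, a pannexin channel of differentiating chondrocytes and osteoblasts, spans chr9:37659902-37669235 on the minus strand, and Prkg2, the cGMP-dependent kinase that relays C-type natriuretic peptide signals in growth cartilage, spans chr5:98929773-99037351 on the minus strand. The 250 bases before the start of Col10a1 and of Ihh are printed because these markers parted in some of the cells. Of the 191 chosen cells with RNA of either gene, 37 held both. The printed bases are RefSeq sequence of GRCm38.p6, 5′ to 3′ on the strand of the gene, at chr10:34389731-34389980 for Col10a1 and chr1:74951673-74951922 for Ihh. Capitals mark a TATAAA box that begins 32 bases before the start of Col10a1, and GC boxes (GGGCGG or its reverse CCGCCC) that begin 129 and 185 bases before the start of Ihh.

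Col10a1: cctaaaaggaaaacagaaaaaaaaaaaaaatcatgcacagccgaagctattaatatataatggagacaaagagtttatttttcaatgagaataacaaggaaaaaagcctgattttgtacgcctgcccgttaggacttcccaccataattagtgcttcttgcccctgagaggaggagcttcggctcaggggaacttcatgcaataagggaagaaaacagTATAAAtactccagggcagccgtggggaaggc
Ihh: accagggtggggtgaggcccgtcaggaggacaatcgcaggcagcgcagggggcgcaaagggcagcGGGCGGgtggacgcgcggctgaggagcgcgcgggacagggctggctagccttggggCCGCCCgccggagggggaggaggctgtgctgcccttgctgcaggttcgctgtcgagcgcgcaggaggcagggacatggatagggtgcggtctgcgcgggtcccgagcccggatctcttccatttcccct

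TATAAA was found on either strand in 12.4% and GGGCGG in 32.7% of 32851 promoter windows of the same table. The core letters of RUNX sites, TGTGGT, were found in 14.0% of these windows on either strand and in neither of the sequences above, which says only that these letters are not in this window.

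Of the 317 cells, 90 came from the 3-month library labelled control, 127 from the 3-month mutant, 20 from the 12–16-month control and 80 from the 12–16-month mutant library. Further values per library are given in this order. The passing cells numbered 717, 484, 135 and 421 with 9429264, 7287981, 2154537 and 4398951 UMIs, and the libraries shared no cell barcode. Prkg2 was detected in 220 of the cells (69.4%), Col10a1 in 140 (44.2%), Panx3 in 95 (30.0%) and Ihh in 88 (27.8%). Most cells, 205, held RNA of a single marker, while 29 held 2, 52 held 3 and 31 held all 4. Ihh, Panx3 and Prkg2 went together, since all 95 cells with Panx3 and 86 of the 88 cells with Ihh also held Prkg2. Col10a1 was found with Prkg2 in 43 of its 140 cells. The rule sums these markers, so that a cell with 1 of them alone can enter by construction, and these counts describe the choice.

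The cells were therefore described in 2 sets, a split made after these counts were seen. The first, called Ihh/Panx3/Prkg2 cells, had at least 3 summed UMIs of these markers whatever their Col10a1 and numbered 219 (32, 119, 14 and 54 per library). Prkg2 was detected in 218 of them, Panx3 in 95, Ihh in 87 and Col10a1 in 42, and 110 held neither Ihh, Panx3 nor Col10a1 and had entered on Prkg2. The second, called Col10a1-only cells, had been let in by Col10a1 and numbered 98 (58, 8, 6 and 26 per library). Ihh was detected in 1 of them, Panx3 in none and Prkg2 in 2, as the definition of the set requires low counts of these. Their Col10a1 had a median of 7.5 UMIs per cell, against a median of 0 in the Ihh/Panx3/Prkg2 cells, and a maximum of 107 against 1358. The choice bears on these medians, since only the Col10a1-only cells had to hold Col10a1. The endplate markers Zfp804b and Dab1, which the rule did not use, followed the same split, with 225, 2714, 21 and 280 and 45, 417, 55 and 99 UMIs in the Ihh/Panx3/Prkg2 cells and 1, 0, 1 and 0 and 0, 0, 0 and 0 UMIs in the Col10a1-only cells. Dab1 was also at 0 in the 39 Ihh/Panx3/Prkg2 cells with at least 3 Col10a1 UMIs, so that its absence does not tell these sets apart, whereas Zfp804b had 254 UMIs there. The Col10a1-only cells are given no other cell type name. Col10a1-only cells made up 64.4% of the chosen cells in the 3-month library labelled control (95% Clopper-Pearson interval 53.7 to 74.3%), 6.30% in the 3-month library labelled mutant (2.76 to 12.0%), 30.0% in the 12–16-month library labelled control (11.9 to 54.3%) and 32.5% in that labelled mutant (22.4 to 43.9%).

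**Figure D1:**
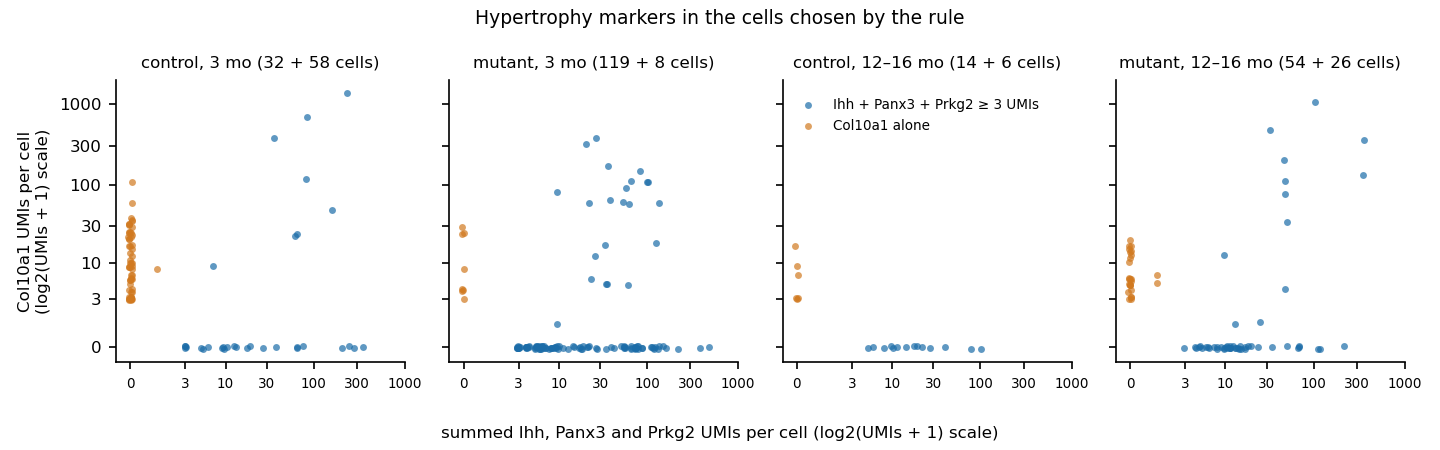
Each point is 1 of the 317 chosen cells, by its Col10a1 UMIs and its summed Ihh, Panx3 and Prkg2 UMIs on log axes, coloured by set and drawn by library. The 98 Col10a1-only cells lie along the Col10a1 axis, and the 219 Ihh/Panx3/Prkg2 cells, of which 177 had no Col10a1, reach 1358 Col10a1 UMIs in a cell.

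When each marker was left out of the choice, Ihh and Panx3 followed the other markers and Col10a1 did so in level but not in frequency. Ihh was detected in 23.7% of 371 chondrocytes with at least 2 summed UMIs of the other 3 markers and in 0.487% of 821 with none of them. The shares for Panx3 were 25.6% of 371 and 0.366% of 820, and those for Prkg2 44.9% of 227 and 16.9% of 983. Col10a1 was detected in 17.2% of 244 cells with the other markers and in 18.3% of 1000 without them, but at 1308 against 111 CPM (counts scaled to an equal library total). In the 12–16-month library labelled control it was at 0 in all 15 cells with the other markers and was detected in 15 of 70 without them. The cells with the other markers were also sequenced deeper, with a median of 20620 UMIs against 10719 in the Col10a1 choice.

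For comparison, the markers were also counted in the 353 cells with neither Sox9 nor Acan, which had a median of 7499 UMIs. Col10a1 was detected in 0.567% of them, Ihh in 0.567%, Panx3 in 4.82% and Prkg2 in 3.68%, and in the other 969 chondrocytes (median 10756 UMIs) in 9.18%, 0.413%, 0.310% and 5.88%. The cells with neither gene were rich in osteoblast and osteocyte markers, at 72584, 4157, 103573 and 31410 CPM per library, so that the share for Panx3 is no level of background. The chosen cells had a median of 18731 UMIs. Of these, the Ihh/Panx3/Prkg2 cells had 21112 and the Col10a1-only cells 12851.5, so that depth differed along with the sets. Shares at a fixed depth are given with the shares of the sets below.

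The limit of 3 UMIs cut through a continuous range. There were 35 cells at exactly 3 summed UMIs, 15 of them Ihh/Panx3/Prkg2 cells and 20 Col10a1-only cells, 54 other chondrocytes at 2 UMIs, 98 at 1 and 817 at 0. The cells at 3 and at 2 UMIs had similar Runx2 (402 and 429 CPM) and Pth1r (289 and 300.1 CPM) and differed in Prg4 (9900 and 5630.5 CPM). Within the cells at 3 UMIs the sets differed, with Runx2 at 751 and Prg4 at 7.37 CPM in the Ihh/Panx3/Prkg2 cells and at 24.0 and 20634 CPM in the Col10a1-only cells.

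To describe what the Ihh/Panx3/Prkg2 cells expressed beyond the genes of the rule, their counts were summed per library and compared within each library with the other chondrocytes. The log2 ratio was taken with 0.5 added to each count and is given as mean ± SD over the 4 libraries. A gene was counted as higher or lower when this ratio was at least 1 or at most −1 in every library. Of 10429 genes with at least 100 UMIs outside the rule, 377 were higher (3.61%) and 639 lower (6.13%), and the median ratio of all of them was 0.07. Because the cells were chosen on counts from the same libraries, these ratios describe the cells and are not tests.

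Transcription factors of hypertrophy stood higher in these cells than in all other chondrocytes summed. Runx2, which drives chondrocyte and osteoblast maturation, was at 919, 919, 676 and 1086 CPM in the Ihh/Panx3/Prkg2 cells and at 40.2, 254, 39.1 and 46.4 CPM in the other chondrocytes, a log2 ratio of 3.75 ± 1.28 (SD, n = 4 libraries). The ranges did not overlap, and the highest value of the other chondrocytes was that under the mutant label at 3 months. In the endplate cells among them, which are described below, Runx2 was at 604, 947, 292 and 464 CPM, and thus above the Ihh/Panx3/Prkg2 cells of the 3-month library labelled mutant. Mef2c, an activator of Col10a1 in growth cartilage, was at 1451, 1305, 328 and 772 CPM against 60.0, 75.7, 93.7 and 83.0, and was lowest in the 12–16-month library labelled control. Sp7, the osteoblast factor osterix, was at 95.4, 80.4, 84.1 and 97.1 CPM, with a log2 ratio of 4.02 ± 0.75. Of 12 measured factors of this list, 6 were higher and none lower. The others were Runx3 (3.91 ± 1.66), Dlx5 (3.19 ± 0.66) and Sox6 (1.47 ± 0.34), and the list's median was 1.73. Runx2 was detected in 98.6% of the Ihh/Panx3/Prkg2 cells, 16.4% of the other chondrocytes and 45.3% of the cells with neither Sox9 nor Acan (median depths 21112, 10756 and 7499 UMIs). Of the latter, 234 of 353 had at least 2 UMIs over the markers Ptprc, Cdh5, Acta2, Hba-a1 and Cxcl12 of other cell types.

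In the loop of Ihh and Pthlh, the receptor Pth1r stood out. It was at 1595, 1542, 898 and 1434 CPM in the Ihh/Panx3/Prkg2 cells and 73.2, 136, 78.2 and 74.0 CPM in the other chondrocytes, a log2 ratio of 3.93 ± 0.50. Gli3, a transcription factor of the hedgehog pathway, was also higher. Gli2 and the hedgehog co-receptors Gas1, Boc and Cdon were lower, Gas1 with a log2 ratio of −7.79 ± 1.84. Of 12 measured genes of the loop outside the rule, 2 were thus higher and 4 lower, with a median of −0.29. Ihh itself, which chose the cells, was at 541, 221, 21.7 and 224 CPM, lowest in the 12–16-month library labelled control. The other chosen markers were at 317, 257, 157 and 225 CPM for Panx3 and 1861, 1564, 841 and 1607 CPM for Prkg2. Prkg1, the other cGMP-dependent kinase, and Npr3, which clears natriuretic peptides, were lower, Prkg1 with a log2 ratio of −1.57 ± 0.32, among 4 measured genes of that pathway (median −1.24). Gja1, the connexin 43 gap junction gene, was lower as well, with a log2 ratio of −5.20, as 1 of 2 measured pannexin and connexin genes.

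Genes of mineralization were uneven. Alpl, the phosphatase that frees phosphate from pyrophosphate, was at 1001, 939, 174 and 849.5 CPM against 31.5, 58.5, 40.3 and 38.7, a log2 ratio of 3.88 ± 1.26. Smpd3, a sphingomyelinase needed for skeletal mineralization, had a log2 ratio of 5.46 ± 0.21, the smallest spread among the 12 leading higher genes. Both were higher in every library. Bmp6 was lower, with a log2 ratio of −3.46. Spp1 (osteopontin) and Ibsp (bone sialoprotein), secreted phosphoproteins of mineralizing matrix, varied between libraries, and neither met the count in all 4. Spp1 was at 9273, 1522, 0 and 3318 CPM against 2053, 2086, 1944 and 4330 CPM in the other chondrocytes, and was thus above them in the 3-month library labelled control alone. It was detected in 29.7% of the Ihh/Panx3/Prkg2 cells and 67.3% of the other chondrocytes. Ibsp was at 3648, 2159, 24.4 and 719 CPM against 238, 146, 17.8 and 145 CPM. Over 13 measured genes of this list 2 were higher and 1 lower, with a median of 0.41.

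The matrix genes showed cartilage collagens higher and surface and disc genes lower than in the other chondrocytes. Col2a1, the main collagen of hyaline cartilage, was at 14716, 7871, 7733 and 9296 CPM in the Ihh/Panx3/Prkg2 cells and 3043, 1984, 3066 and 1971 CPM in the other chondrocytes (log2 ratio 1.96 ± 0.43). Col9a1, encoding a chain of type IX collagen on the surface of type II fibrils, and Matn3, a matrix adaptor protein, had log2 ratios of 3.59 ± 0.75 and 3.29 ± 0.72. The collagens Col9a2, Col9a3, Col11a1 and Col11a2 were also counted as higher, which made 7 of 19 cartilage matrix genes, with 1 lower (Dcn) and a median of 1.40. Prg4, which encodes the joint lubricant lubricin, was at 192, 8.85, 13.6 and 12.8 CPM against 23231, 17611, 24457 and 28847 CPM. All 11 measured genes of the surface and disc list were lower, with a median of −5.42, among them the cartilage intermediate layer gene Cilp (−7.27). The list still summed to 824, 435, 551 and 449 CPM, with Gsn (gelsolin) the most abundant at 1453 UMIs, and Cd24a was detected in 61.6% of the cells. Prg4 was found in 17.8% of the Ihh/Panx3/Prkg2 cells and in 17.8% of the cells with neither Sox9 nor Acan, against 81.5% of the other chondrocytes.

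**Figure D2:**
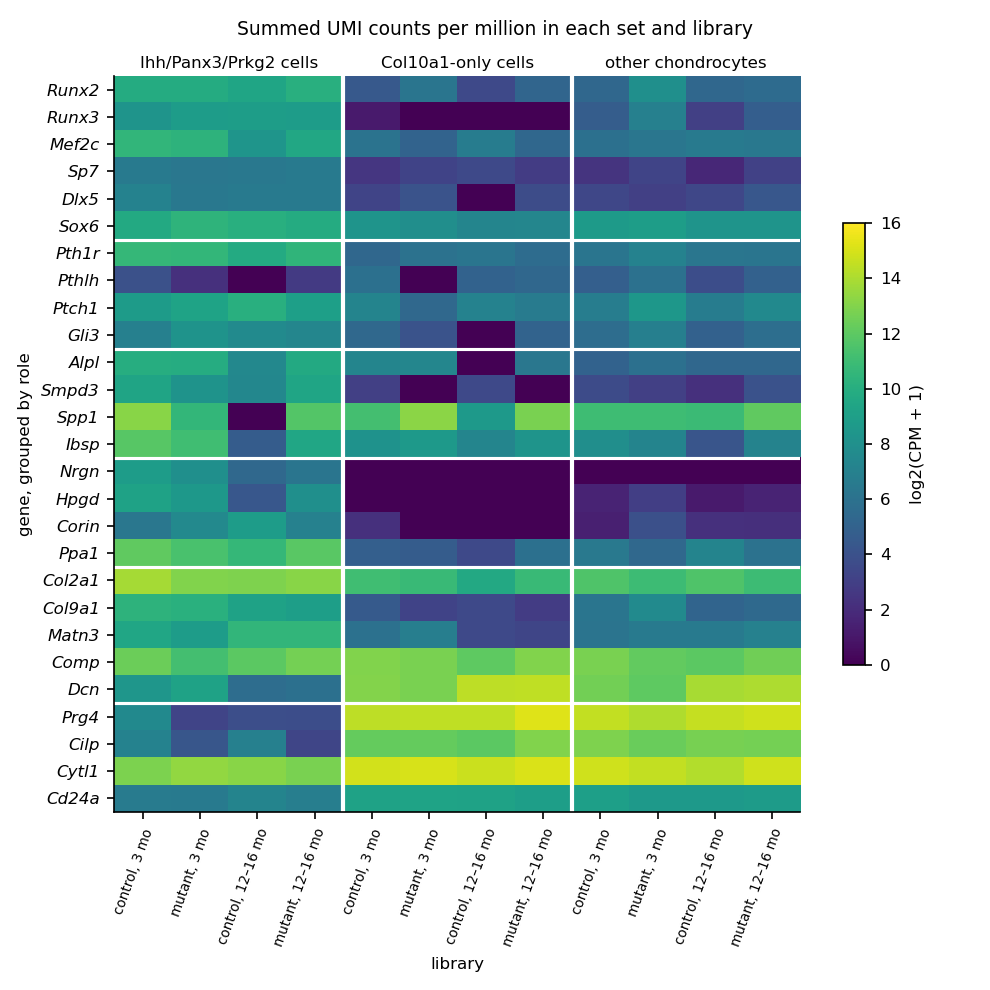
Levels of 27 named genes as log2(CPM + 1), shown by colour, in the Ihh/Panx3/Prkg2 cells, the Col10a1-only cells and the other chondrocytes, each split by the 4 libraries. Runx2, Mef2c and Pth1r are higher in the first set than in the others, and Prg4 and Cilp are high in the Col10a1-only cells and the other chondrocytes alike.

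Among all genes, Nrgn led the higher genes. Nrgn, which encodes the calmodulin-binding protein neurogranin and lies at chr9:37544492-37552904, had 375, 689, 15 and 80 UMIs in the Ihh/Panx3/Prkg2 cells and 0 in the other chondrocytes of all 4 libraries. Against 3 counts over the whole comparison group it was at least 926-fold higher. Nrgn was detected in 32.4% of the Ihh/Panx3/Prkg2 cells and in 11.3% of the cells with neither Sox9 nor Acan. Hpgd, which inactivates prostaglandins, had a log2 ratio of 6.02 ± 1.96. Corin, a protease that processes natriuretic peptides, had one of 5.27 ± 1.27. Ppa1, an inorganic pyrophosphatase, was at 4354, 2689, 1644 and 3771 CPM against 89.3, 41.5, 148 and 65.7 CPM, a log2 ratio of 5.23 ± 1.19. The growth factor gene Bmp8a (5.14 ± 1.59), the BMP antagonist Chrdl1 (4.87 ± 1.08), the heparan sulfate sulfotransferase Hs6st3 (4.92 ± 3.32) and Ttll3 (5.15 ± 0.83), a tubulin glycylase, were of similar size. Hs6st3 was at 80.5, 79.7, 255 and 689 CPM and was thus highest in the oldest mutant library. The remaining leading genes, Gm48155, Gm30835 and Gm50061, are predicted genes of low count.

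Prg4 led the lowest genes. Fbln1 (fibulin 1) had 0 UMIs in the Ihh/Panx3/Prkg2 cells and 1702 in the other chondrocytes, at least 237-fold lower against 3 counts over the set. Abi3bp was at 14.9, 0.369, 5.43 and 0.916 CPM against 2319.8, 1573, 2316 and 1376 CPM, and Vcan (versican) at 129, 1.48, 0 and 8.25 CPM against 3113, 1651, 2207 and 2186 CPM. Dmkn, Slurp1, Gas1 and Lcn2 completed the leading genes in this direction, with 0, 0, 0 and 1 UMIs of Lcn2.

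Of 13 receptors of growth plate signals, Tgfbr1 was lower and none higher, with a median log2 ratio of 0.07. Of 10 feedback genes of the RAS-ERK pathway, the phosphatase Dusp6 (−3.16) and the factor Etv5 (−2.52) were lower (median −0.61). Of 11 glycolysis and hypoxia genes, Slc2a1, Hk2, Ankrd37 and Egln3 were lower (median −1.42), and of 14 immediate early and stress genes Fos, Atf3, Hspb1 and Socs3 (median −1.01). Among 9 cell cycle genes Mki67, Cdk1 and Ccnd1 were higher and Mcm6 lower (median 0.95). Mki67 rested on 6 of the 219 cells, 1 in each library but the 3-month library labelled mutant, which held 3, so that this count was carried by few cells.

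Markers of other cell types were low in the Ihh/Panx3/Prkg2 cells, apart from bone-lineage genes. The immune markers (Ptprc, Cd52, Lyz2, S100a8 and Igkc) summed to 1.24, 0.738, 2.71 and 3.67 CPM, the endothelial markers to 0, 4.06, 0 and 1.83, the erythroid markers to 1.24, 4.43, 8.14 and 1.83, the smooth muscle and mural markers to 4.96, 6.27, 0 and 4.58, the marrow stroma markers to 3.72, 3.32, 16.3 and 18.3, the Schwann markers to 14.9, 10.7, 13.6 and 13.7 and the notochord markers to 0, 0, 0 and 0.916 CPM. The osteoblast and osteocyte markers Col1a1, Bglap, Bglap2, Dmp1 and Phex summed to 1851, 360.4, 163 and 159 CPM. Their most abundant gene was Bglap (osteocalcin), which is nearly identical to its neighbour Bglap2 so that reads could be split between them, with 1061, 423, 14 and 106 UMIs, of which a single cell held 22.5%. Col1a1, the defining bone collagen, was at 3.72, 0.369, 32.6 and 8.25 CPM, and Dmp1, an osteocyte gene, was at 3, 0, 0 and 0 UMIs. Of the 4 measured genes of that list Phex was higher and Col1a1 lower than in the other chondrocytes. Scrublet called 2 Ihh/Panx3/Prkg2 cells, 1 Col10a1-only cell and 8 other chondrocytes as doublets, and they were kept.

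Few genes set the Col10a1-only cells apart from the other chondrocytes. Of 9572 genes, 6 were higher in every library (0.0627%) and 33 lower (0.345%), with a median log2 ratio of −0.08. Without the 12–16-month library labelled control, in which this set held 6 cells, 11 were higher and 84 lower, and without the 3-month library labelled control, which held most of the set, 8 and 69. Without the 12–16-month library labelled mutant the counts were 13 and 56. Runx2 was at 20.8, 73.0, 10.4 and 36.8 CPM, Mef2c at 67.3, 32.5, 104 and 39.9 and Pth1r at 39.2, 64.9, 72.9 and 49.1 CPM, each below the Ihh/Panx3/Prkg2 cells of the same library in all 4. Sp7 was detected in 8.16% of these cells, 5.37% of the other chondrocytes and 69.9% of the Ihh/Panx3/Prkg2 cells. Prg4 was at 22156, 22481, 22493 and 38359.8 CPM and was detected in 84.7% of the cells, against 81.5% of the other chondrocytes. The surface and disc genes were at like levels in both groups (median log2 ratio 0.17, none of 11 counted), with Cilp detected in 70.4% and Dcn (decorin) in 91.8% of them. Some genes of mineralization were found in more of the Col10a1-only cells. Alpl was detected in 28.6% of them (95% interval 19.9 to 38.6%) against 11.6% of the other chondrocytes (9.61 to 13.7%), and Spp1 in 86.7% (78.4 to 92.7%) against 67.3% (64.2 to 70.2%), at median depths of 12851.5 and 10756 UMIs. By summed level, none of the 10 measured hypertrophy factors and none of the 13 mineralization genes was higher or lower, with medians of −0.30 and −0.05.

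The higher genes of the Col10a1-only cells that were named by the rule for leading genes were Padi2, a peptidylarginine deiminase (1.80 ± 0.42), Aspn, encoding asporin (1.54 ± 0.65), and Gpld1, a phospholipase (1.27 ± 0.34). Aspn was at 215, 154, 1114 and 435 CPM against 75.2, 78.4, 203 and 192 CPM. The matrix genes Col9a1 and Epyc were lower, as 2 of 19 cartilage genes, and so was Mgp, the inhibitor of calcification matrix Gla protein, at 204, 860.3, 41.6 and 2631 CPM against 2143, 7332, 3219.8 and 6355 CPM. Mgp was higher in the Ihh/Panx3/Prkg2 cells (3.30 ± 0.86), the opposite direction. Kif26b, Ptprd, Lama2, Pcp4, Cpa6 and Rgs6 were the other leading lower genes, each with at most 4 UMIs in any library of these cells, and Epyc had 2, 0, 0 and 0. The set held 1362308 UMIs in all, and in the 3-month library labelled mutant and the 12–16-month library labelled control it rested on 8 and 6 cells. Col10a1, which chose the set, was at 1104, 844, 427 and 659 CPM in it and at 7.99, 4.32, 15.4 and 26.3 CPM in the other chondrocytes.

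As 1 group, the 317 cells mixed both sets. Against the other chondrocytes, 250 of 10587 genes were higher (2.36%) and 162 lower (1.53%), and without the 3-month library labelled control, the 1 with most Col10a1-only cells, 356 were lower. The leading higher genes were those of the Ihh/Panx3/Prkg2 cells, Nrgn, Hpgd (5.58 ± 1.72), Smpd3 (5.03 ± 0.19), Corin (4.84 ± 1.17), Ppa1 (4.79 ± 1.23) and Bmp8a (4.73 ± 1.61) among them. Prg4 and Cilp were not among the leading lower genes of this group, where Col3a1, C3, Ifi27l2a, Ccdc3, Fbln1, Lcn2, Sema3a and Myoc stood. Col3a1, a fibrillar collagen, had 5, 0, 0 and 9 UMIs in the 317 cells and was at 19.7, 7.31, 512 and 29.1 CPM in the other chondrocytes, highest in the 12–16-month library labelled control.

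The cells were also compared with endplate chondrocytes that were not hypertrophic by these markers, taken as the other chondrocytes with at least 3 summed UMIs of Zfp804b and Dab1. They numbered 76 (16, 52, 1 and 7 per library), so that in the 12–16-month library labelled control the comparison rested on 1 cell. A gene at 0 in that cell takes a ratio from the count of 0.5 added, which falls below −1 where the Ihh/Panx3/Prkg2 cells also held few UMIs. Against them, 26 of 7308 genes were higher in the Ihh/Panx3/Prkg2 cells in every library (0.356%) and 34 lower (0.465%), with a median log2 ratio of −0.13. Of the 34 lower genes, 24 were at 0 in the single cell and 10 had a higher level in it than in the Ihh/Panx3/Prkg2 cells, so that the count of lower genes holds as observed for 10 genes in all 4 libraries. The 26 higher genes had a higher level in the Ihh/Panx3/Prkg2 cells in that library too, although 18 were at 0 in the single cell. Without that library the counts were 85 and 95, without the 12–16-month library labelled mutant 41 and 57, and without the 3-month library labelled mutant 26 and 22. Under TMM scaling, which shifts all ratios of a library alike, they were 45 and 15. The endplate cells had a median of 13431 UMIs against 21112, and both counts fell after thinning to 5000 UMIs, as given below. Nrgn was again at 0 in the comparison cells and at least 83.5-fold higher against 3 counts over the group. Mef2c was at 92.0, 115, 36.5 and 194 CPM in the endplate cells (3.00 ± 0.89), the only one of 12 hypertrophy factors counted as higher (median 0.69). Runx2 had a log2 ratio of 0.59 ± 0.63 over the 3 libraries with more than 1 endplate cell and was not counted, and the factors summed to 5803, 6565, 4947 and 5651 CPM against 3923, 4499, 3500 and 3042 CPM in the endplate cells. Alpl (3.79 ± 1.40) and Smpd3 (2.85 ± 0.88) were the 2 higher of 13 mineralization genes (median 0.88). Enpp2, the enzyme autotaxin (4.17 ± 0.86), and the bone genes Bglap and Phex were higher as well, Phex with 0, 2, 0 and 1 UMIs in the endplate cells.

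Pth1r was counted as higher and Pthlh as lower in this comparison, the latter through 3 libraries since it was at 0 on both sides in the 12–16-month library labelled control. They were the 2 genes of the hedgehog and PTHrP list that were counted (of 12, median −0.66). Pthlh, the ligand, was at 14.9, 3.69, 0 and 5.50 CPM in the Ihh/Panx3/Prkg2 cells and 311, 195, 0 and 269.7 CPM in the endplate cells, and Pth1r, its receptor, at 1595, 1542, 898 and 1434 and 377, 318, 401 and 334 CPM. In the 3 libraries with more than 1 endplate cell, the ligand was thus lower and the receptor higher in the Ihh/Panx3/Prkg2 cells. None of 19 cartilage matrix genes was counted (median 0.30). The leading lower genes, Pthlh among them, were all at 0 in the single endplate cell of the 12–16-month library labelled control, with 0 to 2 UMIs in the Ihh/Panx3/Prkg2 cells there, so that they are given over the 3 other libraries. They included the ETS transcription factor gene Ehf, with a log2 ratio of −5.27 ± 0.50 (SD, n = 3 libraries), the POU transcription factor gene Pou3f3 (−4.70 ± 0.76), the WNT inhibitor Sfrp5 (−5.66 ± 1.48) and the adhesion genes Dscaml1 (−5.89 ± 1.85) and Cadm2 (−5.47 ± 2.76). Sfrp5 was at 315, 324, 0 and 119 CPM in the endplate cells. Spon1 was also among the leading lower genes, and Ttll3, Fam43a, F5, Serinc5 and Prss50 among the higher ones.

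For all 317 cells against the endplate cells, 39 of 8038 genes were higher (0.485%) and 36 lower (0.448%). The counts were 70 and 15 under TMM scaling, 101 and 99 without the 12–16-month library labelled control and 68 and 57 without that labelled mutant. The leading higher genes were then surface genes of the Col10a1-only cells, Prg4 (6.02 ± 1.59), Cilp (4.30 ± 1.72) and Aspn (4.26 ± 0.97), beside Dmkn, Slurp1, Dcn, Vcan, Gas1 and Sbsn. In the Ihh/Panx3/Prkg2 cells alone, Prg4 had a log2 ratio of −1.56 ± 2.46 and was not counted. Of the 36 lower genes, 16 had a higher level in the single endplate cell and the other 20 were at 0 in it. Over the 3 libraries with more endplate cells, Pthlh had a log2 ratio of −4.37 ± 1.33, Slc35f1 of −2.82 ± 1.23 and Ralyl of −2.93 ± 0.87, and each was at 0 in the single cell. Cldn10, with 1 UMI there, was lower in all 4 libraries.

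Within the Ihh/Panx3/Prkg2 cells, those with Col10a1 stood apart from those without. There were 39 cells with at least 3 Col10a1 UMIs (8 of 32, 21 of 119, 0 of 14 and 10 of 54 per library), 177 with 0 and 3 with 1 or 2. The share was 25% (95% interval 11.5 to 43.4%), 17.6% (11.3 to 25.7%) and 18.5% (9.25 to 31.4%) in the libraries that held any, intervals that overlap, and 0 of 14 had an interval of 0 to 23.2%. The depth was similar, with medians of 20335 and 21112 UMIs. Of 6410 genes with at least 100 UMIs, 275 were at least 1 log2 unit higher in the summed cells with Col10a1 with an interval that excluded a ratio of 1 (4.29%) and 556 lower (8.67%). Of these, 223 and 500 had the same direction in all 3 libraries with such cells, and the median log2 ratio over all genes was −0.10.

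Genes of late hypertrophy were higher in the cells with Col10a1, with Spp1 first by the ratio of the summed cells, though not in every library. It was at 15296 CPM in them and 413 CPM in the cells without, a ratio of 37.1 (35.2 to 39.0), and was detected in 33 of 39 against 32 of 177 cells. Ibsp was at 6871 against 870.3 CPM, a ratio of 7.90 (7.57 to 8.23). Mmp13, the collagenase of terminal hypertrophic cells, had a ratio of 15.8 (9.95 to 26.1), but was found in 6 of the 39 cells and 1 cell held 60.7% of its UMIs. Vegfa, the angiogenic factor that draws vessels into cartilage, had a ratio of 10.4 (8.41 to 12.9) and the growth factor gene Bmp2 one of 19.8 (14.0 to 28.6). Of 13 mineralization genes 9 were higher and 1, Mmp14, lower, with a median log2 ratio of 1.63. Of the bone markers, Phex had a ratio of 7.47 (6.41 to 8.72) and was detected in 31 of 39 against 34 of 177 cells. Bglap had a ratio of 2.58 (2.33 to 2.86) in the summed cells, with the opposite direction in both mutant libraries. These were 2 of 3 measured osteoblast and osteocyte markers, and their part in the difference was not tested. Alpl (1.78) and Smpd3 (1.08) were not among the higher mineralization genes, whereas both were higher in the whole set than in the other chondrocytes. Not all of these genes were particular to the 39 cells. Spp1, Vegfa and Bmp2 were detected in 84.6, 69.2 and 41.0% of them and in 86.7, 68.4 and 49.0% of the Col10a1-only cells. Ibsp, Mmp13 and Phex were found in 82.1, 15.4 and 79.5% against 22.4, 1.02 and 7.14%.

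Targets and receptors of hedgehog signaling were low in the same cells. Ptch1, the Ihh receptor and itself a hedgehog target, was at 65.4 CPM against 736 CPM, a ratio of 0.0888 (0.0673 to 0.115) and was detected in 23 of 39 against 170 of 177 cells. Hhip, a target that binds the ligand, had 4 UMIs against 1136, with a ratio of 0.0159 (0.00433 to 0.0409), and Gli1, the standard target of the pathway, 0 against 101, at least 7.45-fold lower against 3 counts over the set. Gli2 had 2 against 249 UMIs. With Smo, Sufu and Boc, 7 of the 10 measured genes of the loop were lower and none higher (median log2 ratio −1.66). Smo went the other way in the 12–16-month library labelled mutant, with a log2 ratio of 0.25. The ligand went the other way, as Ihh had a ratio of 5.29 (4.73 to 5.91). Panx3 was at a like level in both, with a ratio of 1.01 (0.875 to 1.17), and Prkg2 (1.65) and Pth1r (1.52) were below the limit for counting. Ihh, Panx3 and Prkg2 had been used to choose all of these cells, but not this split.

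The transcription factors of hypertrophy differed by smaller ratios. Runx2 was at 1829.9 against 746 CPM, a ratio of 2.45 (2.31 to 2.61), Mef2c had a ratio of 2.75 (2.61 to 2.90) and Foxa2 one of 2.08, and with Mef2a and Mef2d 5 of 12 factors were higher and none lower (median log2 ratio 0.67). Sp7 (1.30), Runx3 (0.809) and Sox6 (0.924) were not counted. Of 18 cartilage matrix genes 10 were lower and 1 (Dcn) higher (median −1.17), Matn3 with a ratio of 0.169 (0.142 to 0.200) and Col9a1 with 0.426 (0.385 to 0.471), while Col2a1 (0.698) and Acan (1.09) were not counted. Nrgn (6.53) and Hpgd (8.09) were higher in the cells with Col10a1, and Corin (0.0579) and Ppa1 (0.429) lower, although all 4 led the whole set against the other chondrocytes.

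Steap4, a metalloreductase, had a ratio of 32.0 (21.6 to 48.9). Irx5, Sox4, Aldh1a3, Egr3, Loxl4, Epas1, C430049B03Rik and Pde11a followed among the 12 highest genes that had the same direction in all 3 libraries, with ratios from 13.9 to 26.3. Epas1, the hypoxia-inducible factor HIF-2α, had a ratio of 18.5, while none of 9 measured glycolysis and hypoxia genes was counted. Among the lowest genes Dab1, a marker used to define the endplate comparison cells, had 0 UMIs against 603, at least 44.5-fold lower. Crispld2 (0.00717), Rgs6, Ly6a, Apod, Ralyl, Bnc2 and Ly6c1 followed, the latter 6 with 0 UMIs in the cells with Col10a1. Mki67 also had 0 UMIs against 160, but these lay in 6 of 177 cells and 1 cell held 58.8%. Among 12 receptors Fgfr1 was higher and Fgfr3, Tgfbr2 and Tgfbr3 lower. Vcan (36.2) and Prg4 (17.9) were higher in the summed cells but not in all 3 libraries, Prg4 with 94.3% of its UMIs in 1 cell, and 61.9% of Bglap UMIs lay in 1 cell too.

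**Figure D3:**
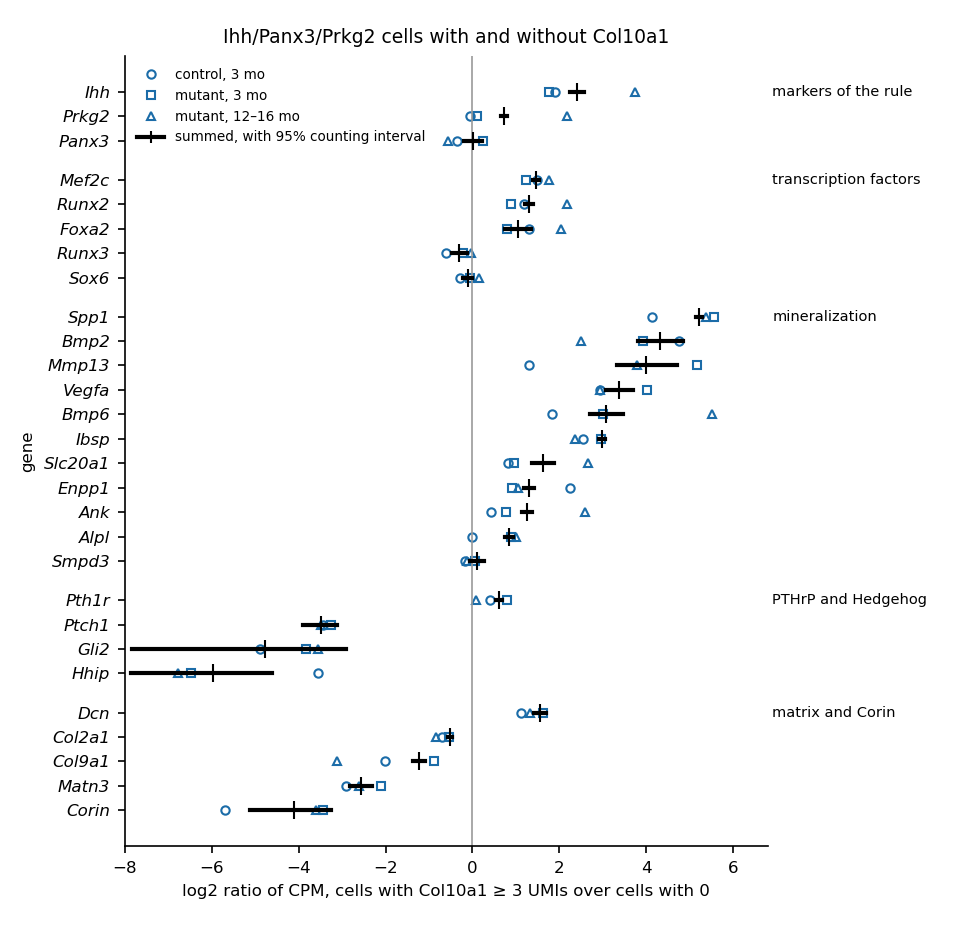
Log2 ratio of CPM between Ihh/Panx3/Prkg2 cells with at least 3 Col10a1 UMIs (39 cells) and with 0 (177 cells) for named genes, with the 95% counting interval of the summed cells as a line and the 3 libraries that held such cells as separate markers. Spp1, Mmp13, Bmp2 and Vegfa lie to the right of 0, Ptch1, Hhip and Gli2 to the left, and Panx3 and Smpd3 near 0.

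The share of the chosen cells among chondrocytes differed between libraries. It was 16.0% (95% Clopper-Pearson interval 13.1 to 19.3%) in the 3-month library labelled control and 33.7% (28.9 to 38.7%) in that labelled mutant, and 22.5% (14.3 to 32.6%) and 31.0% (25.4 to 37.0%) at 12–16 months. The sets went in opposite directions at 3 months. The Ihh/Panx3/Prkg2 cells made up 5.69% (3.93 to 7.94%) of 562 chondrocytes in the control library and 31.6% (26.9 to 36.5%) of 377 in the mutant library, while the Col10a1-only cells made up 10.3% (7.93 to 13.1%) and 2.12% (0.920 to 4.14%). Among the older libraries, the Ihh/Panx3/Prkg2 cells were 15.7% (8.88 to 25%) of 89 and 20.9% (16.1 to 26.4%) of 258 chondrocytes, and the Col10a1-only cells 6.74% (2.51 to 14.1%) and 10.1% (6.69 to 14.4%), with intervals that overlapped for both sets.

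At a fixed depth the order of the 3-month libraries was the same for both sets. With every chondrocyte thinned to 5000 UMIs and the whole rule applied again, the Ihh/Panx3/Prkg2 cells made up 3.96%, 20.2%, 9.82% and 17.3% and the Col10a1-only cells 7.12%, 1.38%, 2.71% and 6.32% per library. The 26, 8, 8 and 48 chondrocytes with fewer UMIs were left out. The shares describe sorted cells that survived digestion and capture in 1 library each, and the part of tissue sampling in them was not tested.

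**Figure D4:**
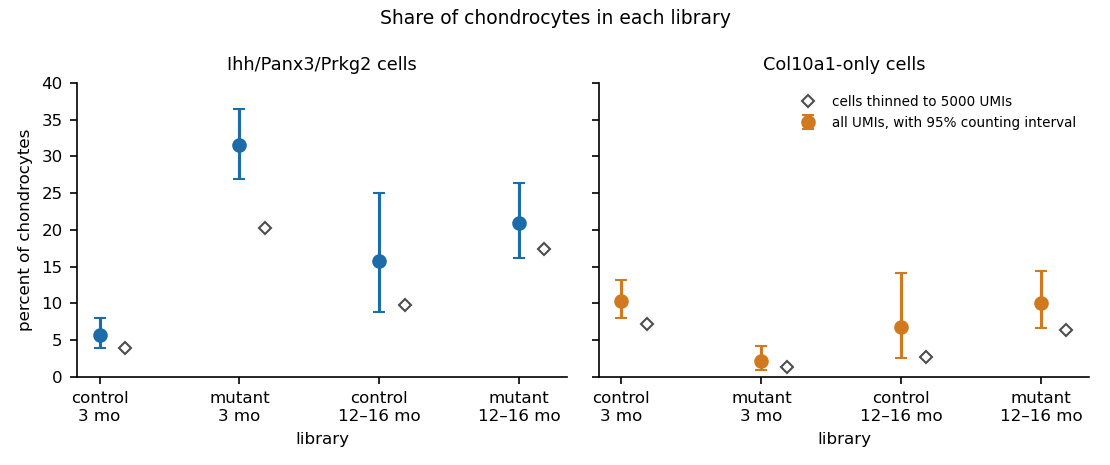
Share of Ihh/Panx3/Prkg2 cells and of Col10a1-only cells among the chondrocytes of each library in percent, with 95% Clopper-Pearson intervals, at full depth and thinned to 5000 UMIs. At 3 months the Ihh/Panx3/Prkg2 cells stand at 5.69% in the library labelled control and 31.6% in that labelled mutant, and the Col10a1-only cells at 10.3% and 2.12%.

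The mutant and control labels were compared within each age. Nf1, the targeted gene, was at 147, 161, 155 and 135 CPM in the Ihh/Panx3/Prkg2 cells, a mutant to control ratio of 1.09 (0.891 to 1.35) at 3 months and 0.871 (0.637 to 1.20) at 12–16 months. Its RNA was thus not lower under the mutant label beyond counting error, and it does not check the labels, since a deletion of internal exons can leave 3′ counts in place. The libraries are called by their labels for this reason. Prss56 had 0 UMIs in the chosen cells of all libraries, and the tdTomato sequence had 5, 7, 2 and 3 UMIs. Ddx3y, a gene of the Y chromosome, had 77, 0, 33 and 24 UMIs in the other chondrocytes, so that its RNA was seen in these cells under the control label alone at 3 months, and the sex of the mice cannot be told apart from the label there.

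In all 317 cells at 3 months, 1067 of 10938 genes with at least 20 UMIs were at least 1 log2 unit higher under the mutant label with an interval that excluded 1 (9.75%) and 907 lower (8.29%). At 12–16 months 370 of 8852 genes were higher (4.18%) and 345 lower (3.9%). The make-up of the group moved with the label at 3 months, where Col10a1-only cells were 64.4% of it under control and 6.30% under mutant. All 10 measured surface and disc genes and 10 of 11 glycolysis and hypoxia genes were lower under the mutant label there. The labels were therefore also compared within the Ihh/Panx3/Prkg2 cells, where 4 of 7 measured surface and disc genes (Prg4, Cilp, Cilp2 and Sfrp5) were still lower under the mutant label at 3 months, with a median log2 ratio of −1.45, and Cilp of 4 at 12–16 months. Single cells weighed on these values. Over all libraries 1 cell held 75.3% of the 198 Prg4 UMIs of the set. In the 3-month library labelled control 1 cell held 91.8% of the 110 Cilp UMIs. In this set, 780 of 10209 genes were higher (7.64%) and 534 lower (5.23%) at 3 months, and 444 of 8016 higher (5.54%) and 303 lower (3.78%) at 12–16 months. The control libraries gave 32 and 14 of these cells, and the median log2 ratios over all genes were 0.06 and −0.01. Of 7932 genes measured at both ages, 39 were higher and 18 lower at both, while 144 were counted in opposite directions.

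Among genes counted in the same direction at both ages, the potassium channel gene Kcnd2, the adhesion genes Tenm2 and Cadm1, the transcription regulator Tox and the predicted gene Gm30173 led the higher ones. Tenm2 was at 31.0, 293, 32.6 and 243 CPM, with ratios of 9.46 (6.36 to 14.7) and 7.46 (4.20 to 14.6), and was detected in 8 of 32 and 87 of 119 cells at 3 months and in 3 of 14 and 36 of 54 at 12–16 months. Tox had ratios of 5.43 (3.84 to 7.91) and 4.87 (2.28 to 12.4) and was detected in 11 of 32 and 77 of 119 cells at 3 months. Tenm2 and Tox were thus found in a larger share of cells under the mutant label at 3 months. The ratio of Kcnd2 at 3 months, 12.0 (6.62 to 24.1), rested on 12 of 119 mutant cells, 1 of which held 79.0% of its UMIs, whereas at 12–16 months it was 8.81 (6.32 to 12.7) with 23 of 54 mutant cells against 3 of 14.

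The same direction held in the other chondrocytes for some of these genes. Their ratios at 3 months were 26.0 for Tenm2, 10.6 for Tox and 23.2 for Kcnd2, each on the same side of 1 as in the Ihh/Panx3/Prkg2 cells. At 12–16 months Tenm2 had 2.46 in the other chondrocytes, and Kcnd2 had 0.0417, the opposite direction. Cadm1 had 176 against 6 UMIs at 3 months, a ratio of 8.73 (3.93 to 24.1), and 38 against 0 at 12–16 months, at least 4.28-fold higher against 3 counts in the control library. Gm30173 had ratios of 5.66 and 13.2, which rested on 2 and 1 UMIs in the control libraries, and at 3 months its log2 ratio turned to −1.44 when cells were thinned to 5000 UMIs.

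Several of the leading lower genes rested on few cells. The histone gene Hist1h2ap, 1 of many near-identical histone genes, had 54 and 75 UMIs in the control libraries, of which 1 cell held 92.6% and 98.7%, and 1 and 3 in the mutant libraries. Pclaf, a partner of the replication clamp PCNA, had ratios of 0.194 and 0.264, the first of which turned to a log2 ratio of 0.90 at a limit of 5 marker UMIs, and 1 cell held 91.3% and all of its UMIs in the control libraries. Cilp had ratios of 0.133 and 0.0734, and 1 cell held 91.8% of its 3-month control UMIs. At 12–16 months Cilp was detected in 7 of 14 control and 8 of 54 mutant cells, and 1 cell held 41.3% of its control UMIs. Rflnb, a filamin-binding regulator of cartilage and bone, was spread over more cells, although 1 cell held 51.2% and 33.3% of its UMIs in the control libraries. It was detected in 14 of 32 and 15 of 119 cells at 3 months, a ratio of 0.118 (0.0629 to 0.211), and in 7 of 14 and 9 of 54 at 12–16 months, a ratio of 0.141 (0.0601 to 0.305), against 0.888 and 1.29 in the other chondrocytes. Ccdc85a had ratios of 0.187 and 0.117, and 1 cell held 51.4% and 34.6% of its UMIs in the control libraries. In the 317 cells together AA465934 and Gm8797 were among the 5 highest and Hspb8, 1500015L24Rik, Atp6v0a4 and Rnaset2b among the 5 lowest.

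Tgfbr3, Igf1r and Zbtb16, which the study had named from these libraries, are not independent evidence. Tgfbr3, a co-receptor for TGF-β, was at 539, 1473, 906 and 918 CPM, with ratios of 2.73 (2.47 to 3.02) and 1.01 (0.894 to 1.15), and Zbtb16, a transcription factor of osteoblast maturation, had ratios of 4.30 (3.51 to 5.32) and 1.31 (0.936 to 1.86). Zbtb16 was detected in 17 of 32 control and 118 of 119 mutant cells at 3 months and in 12 of 14 and 48 of 54 at 12–16 months. Igf1r, the receptor of insulin-like growth factor 1, had ratios of 2.08 (1.74 to 2.50) and 1.30 (0.955 to 1.81). All 3 genes were also above 1 at both ages in the other chondrocytes, Zbtb16 at 5.29 and 2.18. With Lrp5, a WNT co-receptor, 3 of 13 receptors were higher at 3 months and none lower, and none was counted at 12–16 months.

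By list, the mineralization genes differed between ages in the Ihh/Panx3/Prkg2 cells. At 3 months 5 of 13 were lower under the mutant label (Smpd3, Slc20a1, Spp1, Vegfa and Bmp2) and none higher, with a median log2 ratio of −0.50. At 12–16 months 8 of 12 were higher (Alpl, Smpd3, Slc20a1, Mmp13, Spp1, Ibsp, Vegfa and Bmp6) and none lower, with a median of 2.14, or 1.83 with Spp1 and Bmp6, which were at 0 in the control library, set at their bounds. Osteoblast and osteocyte markers moved in the same cells, with Bglap and Bglap2 lower of 3 measured at 3 months (median −3.07) and Bglap higher and Col1a1 lower of 3 at 12–16 months (median −0.90). They summed to 1851, 360.4, 163 and 159 CPM, and their part in the result was not tested. In the other chondrocytes, Col1a1, Bglap and Bglap2 were lower of 4 markers at 3 months (median −4.04), and Col1a1 and Bglap of 2 at 12–16 months (median −4.01). Of the mineralization genes there, Mmp13 was lower of 13 at 3 months and none higher (median 0.23). At 12–16 months Smpd3, Spp1 and Ibsp were higher of 12 and none lower (median 0.25). In the Ihh/Panx3/Prkg2 cells, Alpl was at 1001, 939, 174 and 849.5 CPM and Ibsp at 3648, 2159, 24.4 and 719 CPM. Both were lowest in the 12–16-month library labelled control. Some of these values rested on few cells. In that library 1 cell held 73.4% of the 64 Alpl UMIs, and Ibsp was detected in 4 of 14 cells (28.6%) against 13 of 54 (24.1%) under the mutant label, so that its share of cells went the other way. Mmp13 had 85 UMIs against 1 there, a ratio of 28.7 (5.02 to 1147), and was found in 12 of the 219 cells, 1 of which held 47.2% of its UMIs. The 12–16-month library labelled control held 14 of these cells and none with Col10a1. In the cells without Col10a1 alone, Spp1 was at 1623, 172, 0 and 404 CPM, and at 12–16 months it was at least 49.6-fold higher under the mutant label, against at least 408-fold in the whole set. The mineralization genes summed to 16697, 6346, 1463 and 7121 CPM in the whole set and to 6202, 3503, 1463 and 3187 CPM in the cells without Col10a1. The fold difference of these sums between labels, taken without its direction, was thus smaller there at both ages. For Spp1 alone at 3 months, lower under the mutant label either way, this fold difference was larger without Col10a1.

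Of 12 hypertrophy factors, Foxa2 was higher and Foxa3 lower at 3 months, and Mef2a, Mef2c, Mef2d, Foxa2 and Foxa3 were higher at 12–16 months, with median log2 ratios of −0.06 and 0.77. At 12–16 months, 0 of 14 control and 10 of 54 mutant cells held at least 3 Col10a1 UMIs. Mef2a, Mef2c, Mef2d and Foxa2 were also higher in cells with Col10a1, as given above. The part of this make-up in the label ratios was not tested. Foxa2, a forkhead factor of hypertrophic differentiation, had 50, 348, 0 and 47 UMIs. Runx2, whose levels are given above, was not counted at either age, with ratios of 0.999 (0.920 to 1.09) and 1.61 (1.40 to 1.85). In the hedgehog and PTHrP list Gli1, Gli3 and Boc were higher and Pthlh and Gas1 lower at 3 months (of 12), and Ptch1 and Gli1 lower at 12–16 months (of 9). Ptch1 was at 432, 627, 1113 and 531 CPM, highest in the 12–16-month library labelled control. Of 8 RAS-ERK feedback genes measured at 3 months, Spred2 was higher and Spry2 lower, and none of 4 was counted at 12–16 months. Of 20 cartilage genes Matn1 was higher and Comp and Matn4 lower at 3 months, and none of 19 was counted at 12–16 months. Of 9 glycolysis genes, 6 were lower at 3 months and none was counted at 12–16 months. Of 14 immediate early and stress genes Hspa1b and Hspb1 were higher and Atf3, Ier3 and Socs3 lower at 3 months, and Atf3 and Ier3 higher at 12–16 months. Among the cell cycle genes, Mki67, Top2a, Cdk1 and Cdkn1a of 10 were lower at 3 months, where all 24 Mki67 UMIs of the control library lay in 1 of 32 cells, and Cdkn1a was higher and Pcna lower of 11 at 12–16 months.

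**Figure D5:**
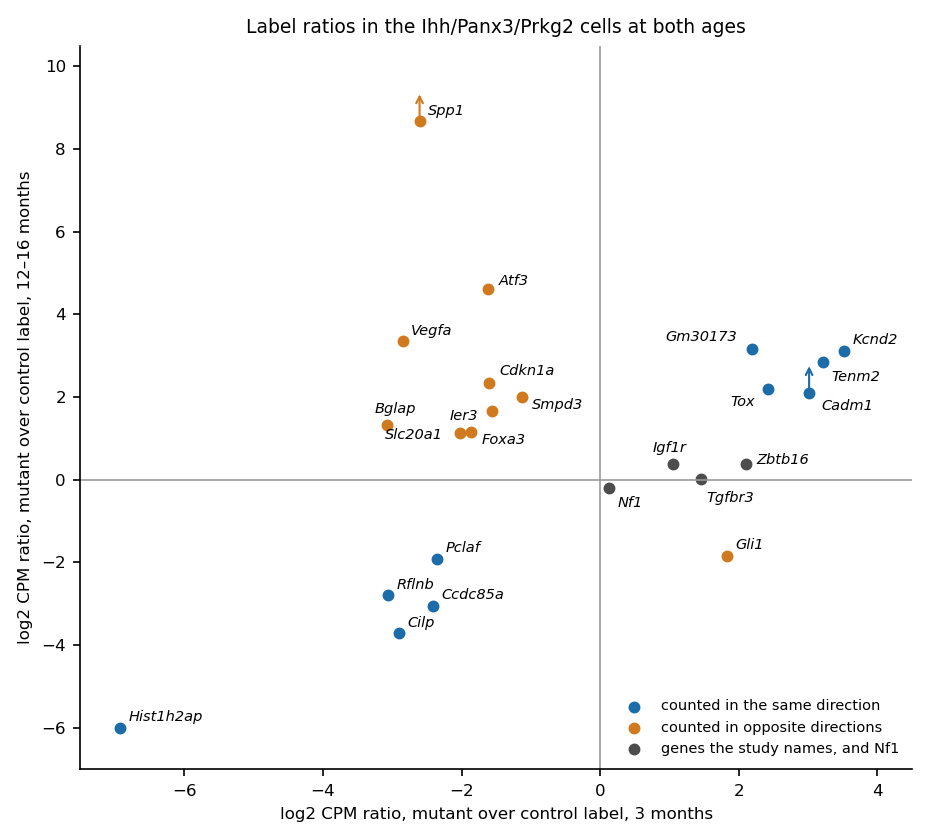
Log2 ratio of the mutant to the control label in the Ihh/Panx3/Prkg2 cells at 3 months (horizontal) and at 12–16 months (vertical) for named genes, each point 1 gene. Arrows mark Spp1 and Cadm1, undetected under the control label in the older mice and drawn at the bound of 3 counts, and Tenm2, Tox and Kcnd2 lie above 0 at both ages.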

How the data were processed

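tdTom+ spine cells were profiled in 4 libraries with 10x 3′ chemistry. The values deposited by the authors are raw UMI counts for each gene in each barcode, from Cell Ranger 8.0.0 on mm10 (per the submitters' processing notes), neither normalized nor pooled. The SoupX step of the study was not repeated here, so that counts of free RNA remain. The matrices list 32286 genes, of which 99.6% matched the GRCm38 annotation (GENCODE M21) by identifier, the source of all coordinates. Genes are named as listed, and 38 symbols that name several genes were left out.

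Members, gene lists and comparisons were chosen with earlier results of these data known, and the split into sets and that by Col10a1 after the counts were seen. Counts were summed per library and cell set and scaled to an equal total (CPM). Intervals were exact conditional binomial for ratios and Clopper-Pearson for shares. UMIs of a cell are not independent, and intervals cover counting error only. The genes of the rule were left out of the counts of genes, and so were Zfp804b and Dab1 against the endplate cells. The 12 highest and 8 lowest counted genes with at least 100 UMIs were named by mean log2 ratio, and for the labels the 5 highest and 5 lowest by the smaller of both ages. Mitochondrial, ribosomal, hemoglobin and sex-linked genes were left out of these. One of the genes named by this rule is not reported here. Other named genes belong to the lists, or were chosen for the targeted locus and the rule. Genes named for the split by Col10a1 were the 12 highest and 8 lowest by ratio among those with the same direction in all 3 libraries that held such cells, besides list genes. Cells at exactly the limits, single-cell weights and bounds were added after values were seen.

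Doublets were called with Scrublet (scanpy 1.11.5) at an expected rate of 6% and kept. Alternatives covered the marker and Acan limits, doublets, cells with other cell types' markers, equal weight per cell, TMM factors (edgeR 4.0.16 in R 4.3.3), thinning to 5000 UMIs, low-count filter, count added, depth matching and each library left out. Scripts ran in Python 3.11.15 (pandas 2.3.3, scipy 1.17.1, numpy 2.4.6) and were tested on simulated data.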

Additional observations from a re-analysis of the deposited data

Results flagged for a closer look

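In the Ihh/Panx3/Prkg2 cells, 10 of the 109 genes of the lists measured at both ages (9.17%) were counted in opposite directions under the mutant label at 3 and at 12–16 months. Over all genes this held for 144 of 7932 (1.82%), in a comparison not matched for gene level. With 1 library for each label and age, the difference between the ages was not tested. Chance and the make-up of each library cannot be told apart from age here, and the 12–16-month library labelled control held 14 of these cells.

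Among the mineralization genes, the mutant to control ratio of Spp1 was 0.164 at 3 months and at least 408 at 12–16 months, where the control library had 0 of its UMIs in 14 cells and the mutant library had them in 16 of 54 cells, with 40% in 1 cell. At 3 months single cells held 36.0% and 35.4% of its UMIs under control and mutant. Vegfa had ratios of 0.138 (0.103 to 0.184) and 11.0 (4.98 to 30.4), the second on 6 UMIs in the control library. The sphingomyelinase gene Smpd3 had 0.456 (0.408 to 0.511) and 4.03 (3.11 to 5.31), and the phosphate transporter gene Slc20a1 0.245 (0.200 to 0.300) and 2.23 (1.47 to 3.52). The osteocalcin gene Bglap, a bone marker, had 0.119 (0.106 to 0.133) and 2.56 (1.46 to 4.84), the second on 14 control UMIs. The forkhead factor Foxa3 had 0.276 (0.211 to 0.359) and 2.31 (1.25 to 4.65), the second on 12 control UMIs. These 6 genes were thus lower at 3 months and higher at 12–16 months under the mutant label. The hedgehog target Gli1 went the other way, with 3.87 (1.58 to 12.3) on 5 control UMIs and 0.278 (0.127 to 0.600). The cell cycle inhibitor gene Cdkn1a had 0.328 (0.263 to 0.409) and 5.40 (2.54 to 13.7), the second on 7 control UMIs. The immediate early gene Atf3 had 0.327 (0.284 to 0.377) and 30.2 (8.25 to 252), the second on 2 control UMIs, and Ier3 had 0.338 (0.255 to 0.448) and 3.22 (2.05 to 5.31). Intervals are 95% intervals for counting error only.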

How the results depend on the processing

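Counts of genes are given as higher and lower. For all 317 cells against other chondrocytes, 250 and 162 became 145 and 42 after thinning to 5000 UMIs, 415 higher without a filter on low counts and 70 lower with equal weight per cell. For the Ihh/Panx3/Prkg2 cells, 377 and 639 became 221 and 409 with comparison cells matched in depth, 368 lower after thinning and 827 higher without the filter. For the Col10a1-only cells, 6 and 33 became 18 lower at 2 marker UMIs, 50 lower at 1 Acan UMI, 10 lower both after thinning and with 1 count added, and 3456 higher without the filter, where genes with few UMIs get ratios from the count added. Against the endplate cells, 39 and 36 for all cells became 116 and 112 at 2 marker UMIs (without the 12–16-month library labelled control, which then had no comparison cell), 70 and 15 under TMM, 20 and 23 after thinning, 3279 lower without the filter, 58 lower with 1 count added and 21 lower matched in depth. For the Ihh/Panx3/Prkg2 cells, 26 and 34 became 99 and 116, 45 and 15, 5 and 20, 2706 lower, 17 and 61, and 12 lower under the same settings. TMM moved the median log2 ratio of all genes from 0.07 to −0.05 for the Ihh/Panx3/Prkg2 cells against other chondrocytes and from −0.15 to 0.19 for all cells against endplate cells.

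With each library left out in turn, the counts ranged from 264 to 329 and 153 to 356 for all cells, 388 to 452 and 533 to 701 for the Ihh/Panx3/Prkg2 cells and 7 to 13 and 37 to 84 for the Col10a1-only cells against other chondrocytes, and from 50 to 101 and 28 to 99, and 26 to 85 and 22 to 95 against endplate cells.

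For the labels, thinning gave 150 and 138 genes for all cells at 12–16 months, and for the Ihh/Panx3/Prkg2 cells 396 and 328 at 3 months and 166 and 107 at 12–16 months. Without the filter 590 and 536 genes were lower at 12–16 months in all cells and in the Ihh/Panx3/Prkg2 cells. At 3 months the log2 ratio of Pclaf reversed to 0.90 at 5 marker UMIs, and that of Gm30173 to −1.44 after thinning. The cause was not tested.

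The share of the 317 cells was 12.5% at 5 marker UMIs, 11.1% thinned and 12.6% of all passing cells in the 3-month library labelled control. In that labelled mutant it was 38.7% at 2 and 27.9% at 5 marker UMIs, 21.6% thinned and 26.2% of passing cells. At 12–16 months it was 12.5% thinned under control, and 23.7% thinned and 19.0% of passing cells under mutant. The Ihh/Panx3/Prkg2 cells of the 3-month mutant library made up 26.8% at 5 marker UMIs, 20.2% thinned and 24.6% of passing cells, and those of the 12–16-month mutant library 12.8% of passing cells. The Col10a1-only cells made up 7.47% at 5 marker UMIs and 7.12% thinned in the 3-month control library, and 6.32% thinned and 6.18% of passing cells in the 12–16-month mutant library.

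The library of the fewest cells, with 14 Ihh/Panx3/Prkg2 cells, and the single endplate cell beside them limit every count that asks for all libraries. The labels give no replicate numbers, and mutant and control were set side by side within each age and not tested as pairs.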
